A study of Mus musculus with 6 samples.

Results

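The genes of the proteasome, the protease complex that degrades ubiquitin-tagged proteins, were measured in liver group 1 innate lymphoid cells (ILC1) of leukaemic and healthy mice. They were taken as every gene of the count table whose symbol begins with Psm, a letter from a to f and a digit. This gave 46 of 24091 genes, of which 44 had 10 or more reads in at least 3 libraries. Among the 44, 5 are immunoproteasome genes, 31 are constitutive subunits, 3 are assembly chaperones of the regulatory particle and 3 are other regulators. The last 2, Psmc3ip and Psme2b, match the symbol but were placed in none of these roles. Psmc3ip encodes a factor of meiotic recombination, and Psme2b is a copy of Psme2 elsewhere in the genome. The genes left out, Psma8 of the testis and Psmb11 of the thymic cortex, had at most 6 reads and 1 read in any library.

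The AML group had 3 libraries, from C57BL/6 mice that received 1000000 C1498 cells, an acute myeloid leukaemia line of the same strain, into a vein. The healthy group had 3 libraries from C57BL/6 mice that received none. Cells were taken from the liver 2 weeks later (day 14), and 2 ng of RNA per library was amplified from poly(A) tails and sequenced without strand information. The labels give neither the sort gates nor the sex or number of animals behind a library, so a p-value here reflects the variation from library to library, of which some may be technical.

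Total counts ran from 45135093 to 51284691 in AML libraries and from 48999439 to 51114701 in healthy libraries. Levels are in CPM, read counts per 1000000 on library sizes scaled by TMM, and differences between groups are fitted log2 fold changes of AML over healthy. The 8 ILC1 markers included Itga1, Cxcr6, Klrb1c and Ncr1, the last 2 with the highest CPM of the 8 in every library. Their sums were 5327 to 6047 CPM in AML libraries and 5649 to 5844 CPM in healthy libraries. Of their fold changes 5 were positive and 3 negative. Every AML library lay below all healthy ones for Cxcr6 only (7.34% of all genes tested), at a log2 fold change of -0.32. Every AML library lay above for Ncr1 only (8.2%), at 0.20. For 5 markers of conventional NK cells the sums were 99.5 to 131 CPM in AML libraries and 120.1 to 135 CPM in healthy libraries, most of it Itgam. Itgam had the 1 negative fold change of these 5, and the other 4 were positive. For 14 myeloid and antigen-presenting markers the sums were 1026 to 1280 CPM in AML libraries, against 731, 147 and 179 CPM in healthy 1, 2 and 3. All 14 fold changes were positive, where 48% of all genes tested were negative. In the edgeR quasi-likelihood test 9 of them had an unadjusted p below 0.05, where 5.08% of all genes were higher in AML at this p. T cell markers summed to 979 to 1351 CPM in AML libraries and 1371 to 1692 CPM in healthy libraries, most of it Cd3g. Of the 6 T cell markers tested, 3 had positive and 3 negative fold changes. Cd3g was the only 1 of them with every AML library below all healthy ones (7.34% of all genes tested). The part of these markers in the results was not tested. The sums of B cell, hepatocyte and endothelial markers stayed at or below 7.54 CPM in every library, with Pax5 and Lyve1 at 0 reads.

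The proteasome consists of a barrel, the 20S core, and caps that admit substrates. The core has outer rings of alpha subunits and inner rings of beta subunits, of which Psmb5, Psmb6 and Psmb7 encode the catalytic ones. The 19S cap binds ubiquitin, unfolds the substrate with its ATPases and feeds it into the core. Interferon gamma induces Psmb8, Psmb9 and Psmb10, whose products take the places of those of Psmb5, Psmb6 and Psmb7 in new cores, and Psme1 and Psme2, which encode the PA28 activator. Cores built with them, the immunoproteasomes, favour peptides that MHC class I can present, and lymphocytes are known to hold many of them.

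The upstream sequences of a pair of immunoproteasome genes and of the genes for their constitutive counterparts are shown because these pairs are the ones compared below. The sequences are RefSeq's (GRCm38.p6, the mm10 assembly), 5′ to 3′ on the strand of the Psm gene, and end at the base before the transcript start used in RefSeq's table. The bases that follow this start were found in a GENCODE M21 transcript for Psmb5, Psmb8 and Psmb9 but not for Psmb6, whose start rests on that table. The Psmb8 sequence is chr17:34197945-34198194 (plus strand), Psmb5 is chr14:54617996-54618245 (minus strand) and Psmb6 is chr11:70525107-70525356 (plus strand). The Psmb9 sequence, chr17:34187331-34187555 (minus strand), is the whole interval of 225 bases between the starts of Psmb9 and Tap1, a peptide transporter gene transcribed the other way. Capitals mark letters that match a searched motif.
Psmb8 upstream: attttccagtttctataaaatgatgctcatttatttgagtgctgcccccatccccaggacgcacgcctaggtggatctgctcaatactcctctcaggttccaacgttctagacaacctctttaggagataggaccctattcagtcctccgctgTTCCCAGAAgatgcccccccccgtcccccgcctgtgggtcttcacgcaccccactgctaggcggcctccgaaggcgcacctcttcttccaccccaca
Psmb9 to Tap1 interval: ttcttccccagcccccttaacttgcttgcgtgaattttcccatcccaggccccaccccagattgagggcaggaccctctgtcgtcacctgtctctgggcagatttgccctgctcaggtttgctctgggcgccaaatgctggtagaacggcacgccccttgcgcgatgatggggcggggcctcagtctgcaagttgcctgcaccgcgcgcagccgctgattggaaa
Psmb5 upstream: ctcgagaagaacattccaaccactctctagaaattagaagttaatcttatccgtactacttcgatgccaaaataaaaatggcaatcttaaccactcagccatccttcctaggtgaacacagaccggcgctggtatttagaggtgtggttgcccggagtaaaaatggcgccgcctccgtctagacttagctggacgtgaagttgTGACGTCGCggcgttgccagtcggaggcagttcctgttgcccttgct
Psmb6 upstream: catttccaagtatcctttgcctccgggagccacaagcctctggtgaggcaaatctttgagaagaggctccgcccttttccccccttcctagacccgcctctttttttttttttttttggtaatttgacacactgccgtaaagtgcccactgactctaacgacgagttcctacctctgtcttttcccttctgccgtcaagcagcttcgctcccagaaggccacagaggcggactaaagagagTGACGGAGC
Searched on both strands in the 250 bases upstream were TTCNNNGAA, the GAS motif of interferon-induced genes, the core of the interferon-stimulated response element, and TGACNNNGC, the antioxidant response element of NRF1 and NRF2. The Psmb8 sequence held a GAS match, TTCCCAGAA, that begins 97 bases before the transcript start. It was the only match to any of these motifs upstream of the 5 immunoproteasome genes, and 7.02% of 32851 promoters held a GAS match. The Psmb5 and Psmb6 sequences each held a match to the antioxidant element, TGACGTCGC and TGACGGAGC, which 10.2% of promoters held. Among the 25 constitutive subunits with a RefSeq promoter, 4 held this match (Psmb5, Psmb6, Psmc6 and Psmd12), 2 the interferon-stimulated core (Psmb3 and Psmd4), which 2.98% of promoters held, and 0 a GAS match. No 2 matches overlapped in the sequences shown. These are matches of letters, not measured binding sites.

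Per kilobase of gene length (RPKM, CPM divided by the length the count table gives), the immunoproteasome genes were among the most abundant proteasome transcripts in both groups. Psmb8, the chymotrypsin-like immunoproteasome subunit, had the highest level of all 44 genes, at 550.4 ± 43.3 RPKM in AML libraries and 541 ± 25.6 RPKM in healthy libraries (SD, n = 3 each). Psme1 came next, at 391 ± 7.49 RPKM in AML libraries and 376 ± 16.6 RPKM in healthy libraries. Psmb10, Psmb9 and Psme2 averaged 243, 247 and 154 RPKM in AML libraries and 256, 226 and 146 RPKM in healthy libraries. All 5 lay within the 10 highest genes in each group. The 31 constitutive subunits ran from 11.05 to 252 RPKM in AML libraries, with a median of 73.3, and from 10.97 to 264 RPKM in healthy libraries, with a median of 75.2. Psma2 was the highest of them and Psma3 the lowest in both groups. The span of Psma3 overlaps that of 3110056K07Rik on the other strand by 4263 bases.

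**Figure D1:**
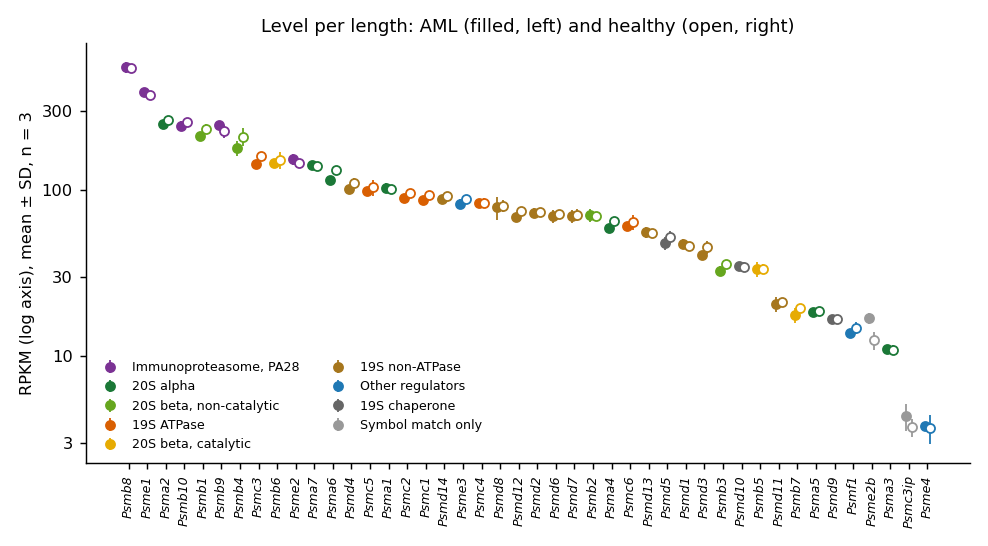
Level per length of the 44 proteasome genes (RPKM, log axis), as mean ± SD of 3 libraries, with AML filled and at the left of each pair, healthy open and at the right, coloured by role. Psmb8 and Psme1 stand highest in both groups, and Psme4 and Psmc3ip lowest.

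The constitutive catalytic genes were spread widely. Psmb5 stood at 33.5 ± 3.60 RPKM in AML libraries and 33.7 ± 2.36 RPKM in healthy libraries, Psmb7 at 17.8 ± 1.88 RPKM in AML and 19.5 ± 0.428 RPKM in healthy libraries, and Psmb6 at 145 ± 5.18 RPKM in AML and 153 ± 17.6 RPKM in healthy libraries (SD, n = 3 each). The length-scaled ratio of Psmb8 to Psmb5 was 14.8, 17.2 and 17.5 in AML 1, 2 and 3, against 14.2, 16.4 and 17.8 in healthy 1, 2 and 3. For Psmb10 over Psmb7 it was 11.99, 14.8 and 14.6 in AML libraries, against 13.1, 13.1 and 13.3 in healthy libraries. For Psmb9 over Psmb6 it was 1.57, 1.72 and 1.83 in AML libraries, against 1.19, 1.60 and 1.72 in healthy libraries. In each pair the groups overlapped, and no library order set AML apart from healthy.

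How far each pair is from 1 depends on the gene length used. The table gives Psmb7 a length of 3.222 kb, where its principal transcript in GENCODE M21 has 1.16 kb. With principal transcript lengths the mean ratio in AML libraries was 12.8 for Psmb8 over Psmb5, 4.77 for Psmb10 over Psmb7 and 0.782 for Psmb9 over Psmb6, so that only the Psmb9 pair crossed 1. By these lengths Psmb9 and Psme2 ranked 14 and 11 of the 44 genes in healthy libraries, outside the 10 highest. Psma2 has 0.938 kb in the count table and a principal transcript of 2.911 kb. It moved from rank 3 to 23 in healthy libraries, at 85.2 RPKM. A length common to both groups cannot alter the comparison of AML with healthy libraries.

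**Figure D2:**
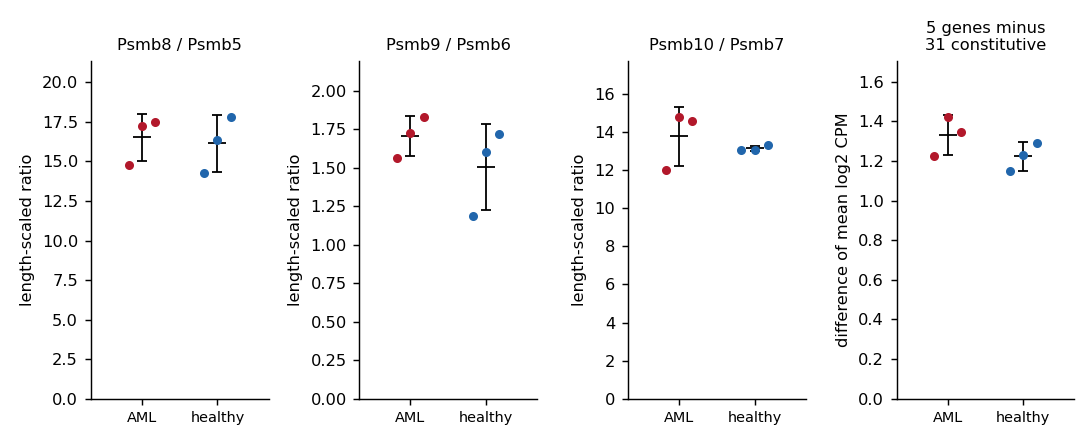
Length-scaled ratios of the catalytic pairs and the mean log2 CPM of 5 immunoproteasome genes minus that of 31 constitutive subunits, per library (points), with mean ± SD of 3 libraries (black), AML at the left. AML and healthy points overlap in every panel.

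No proteasome gene passed an adjusted p of 0.05 between AML and healthy libraries in the edgeR quasi-likelihood test, and of all 12469 genes tested 0 (0%) passed. An unadjusted p below 0.05 was reached by 2 of 44, beside 8.84% of all genes. They were 1 higher in AML, Psme2b, beside 5.08% of all genes, and 1 lower, Psma6, beside 3.75%. The groups did not overlap for 4 of the 44 genes, where 15.5% of all genes tested had such a separation. AML stood above for 1 (8.2% of all genes) and below for 3 (7.34%). DESeq2 called 143 genes (1.15%), the likelihood ratio test of edgeR 100 (0.802%) and limma-voom 0 (0%), and 0 of these were proteasome genes. In the authors' deposited table all 44 were listed, 0 with an adjusted p under 0.05, and the smallest was 0.725. Bulk RNA cannot tell fewer cells of a type from less RNA per cell, which holds for all differences given here.

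The intervals were narrow. For 42 of the 44 genes, all but Psmc3ip and Psme2b, the 95% interval of the change lay within 1.5-fold in either direction, as it did for 56.4% of all genes tested. The median absolute log2 fold change was 0.07 over the 44 genes and 0.15 over all genes. The median SE differed likewise, at 0.08 and 0.15, so neither contrast marks the proteasome genes as unusually stable. Psmc3ip and Psme2b had the lowest CPM of the 44, and the part of read depth was not tested. The summed level of the 44 genes was 6729, 6520 and 6202 CPM in AML 1, 2 and 3, against 6843, 6814 and 6406 CPM in healthy 1, 2 and 3.

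**Figure D3:**
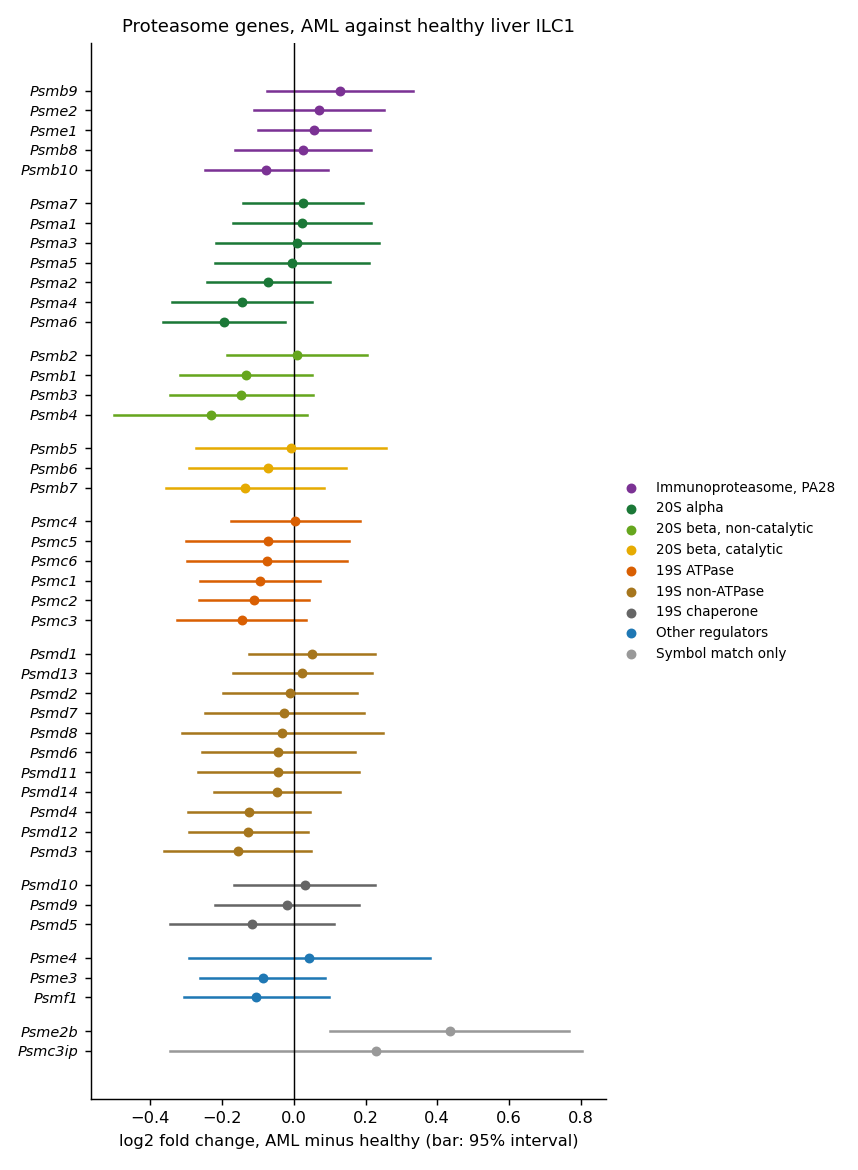
Log2 fold change, AML minus healthy, of the 44 proteasome genes with the 95% interval of the quasi-likelihood fit, grouped by role. Intervals of all genes but Psma6 and Psme2b cross 0.

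The 5 immunoproteasome genes had a median log2 fold change of 0.06, beside 0.01 over all genes, with 4 positive and 1 negative. Psmb8 (chromosome 17, 34198195 to 34201454) measured 654, 729 and 627 CPM in AML libraries, against 622, 677 and 676 CPM in healthy libraries. These ranges overlap, and the log2 fold change was 0.02 ± 0.08 (SE), with a 95% interval of -0.16 to 0.21 (adjusted p = 0.936, quasi-likelihood test). Psmb9 (chromosome 17, 34182099 to 34187330), which replaces the caspase-like Psmb6, measured 185, 205 and 204 CPM in AML libraries, against 163, 191 and 189 CPM in healthy libraries. AML 1 lay inside the healthy range and AML 2 and 3 above it. The log2 fold change of Psmb9 was 0.13 ± 0.09 (SE), interval -0.08 to 0.33, adjusted p 0.666 in the same edgeR test. It was 0.055 without healthy 1 and 0.28 with the myeloid gene Lyz2 as a covariate. Healthy 1 was the only healthy library with Lyz2 at AML levels, so the value with this covariate rests mostly on healthy 1.

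Psmb10 (chromosome 8, 105935728 to 105938392), which replaces the trypsin-like Psmb7, had the opposite sign. It measured 298, 331 and 292 CPM in AML libraries, against 327, 323 and 319 CPM in healthy libraries, and its log2 fold change was -0.08 ± 0.07 (SE), interval -0.25 to 0.09. AML 2 lay above the narrow healthy range and AML 1 and 3 below it. The PA28 genes lie 5912 bases apart on chromosome 14. Psme1 (55578494 to 55581527), the alpha chain, measured 376, 385 and 371 CPM in AML libraries, against 375, 369 and 345 CPM in healthy libraries, and Psme2 (55587440 to 55591101), the beta chain, 157, 152 and 136 CPM in AML libraries, against 145, 144 and 135 CPM in healthy libraries. Their log2 fold changes were 0.06 ± 0.07 and 0.07 ± 0.08 (SE), with intervals of -0.10 to 0.21 and -0.11 to 0.25, and AML 3 lay inside the healthy range for both. Without healthy 3 they were 0.012 for Psme1 and 0.028 for Psme2.

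**Figure D4:**
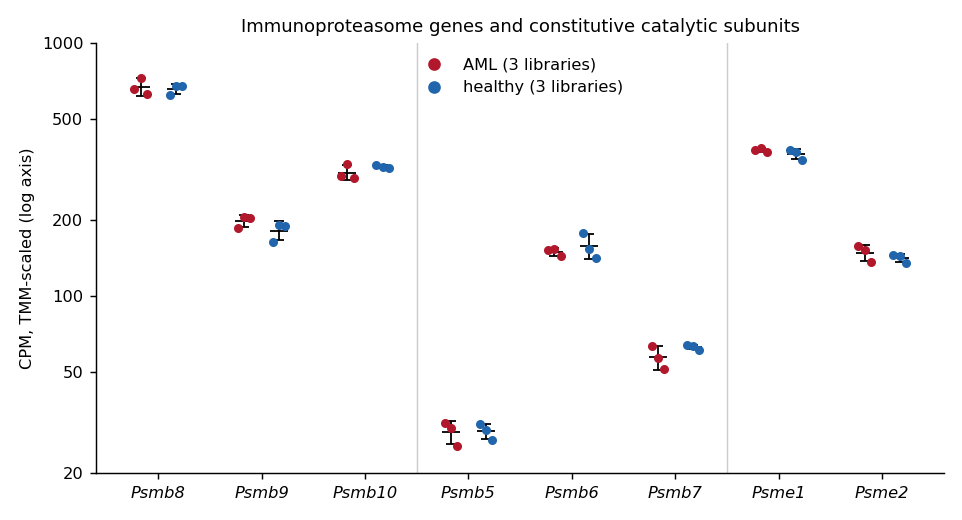
CPM per library (points, log axis) of the immunoproteasome catalytic genes (left), their constitutive counterparts (middle) and the PA28 genes (right), with mean ± SD of 3 libraries, AML at the left of each pair. The groups overlap for all 8 genes.

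The constitutive catalytic genes showed small differences as well. Psmb5, the chymotrypsin-like subunit (chromosome 14, 54614120 to 54617995), measured 31.5, 30.1 and 25.5 CPM in AML libraries, against 31.2, 29.5 and 27.1 CPM in healthy libraries. Psmb6, the caspase-like subunit (chromosome 11, 70525357 to 70527858), measured 152, 153 and 144 CPM in AML libraries, against 177, 154 and 141 CPM in healthy libraries. Psmb7, the trypsin-like subunit (chromosome 2, 38588046 to 38643906), measured 63.4, 57.1 and 51.2 CPM in AML libraries, against 64.01, 63.2 and 61.3 CPM in healthy libraries. The groups overlapped for each gene. The log2 fold changes were -0.01, -0.07 and -0.14, with adjusted p of 0.985, 0.807 and 0.673 in the quasi-likelihood test.

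Over the 31 constitutive subunits the median log2 fold change was -0.07, and 24 of them (77.4%) were negative in value, where 48% of all genes tested were. The range ran from -0.23 for Psmb4, a non-catalytic beta subunit, to 0.05 for Psmd1, the largest scaffold of the 19S base. Among 7 alpha subunits 4 were negative, among 4 non-catalytic beta subunits 3, among 6 ATPases 5 and among 11 non-ATPase subunits of the 19S cap 9. All subunits were read in the same 6 libraries, so these signs are not independent of each other.

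Psma6, an alpha ring subunit (chromosome 12, 55384222 to 55418459), was the constitutive gene with the smallest p. It measured 135, 123 and 122 CPM in AML libraries, against 152, 143 and 140.2 CPM in healthy libraries, with every AML library below every healthy one. Its log2 fold change was -0.19 ± 0.07 (SE), interval -0.36 to -0.02, and edgeR gave an unadjusted p of 0.0307 (adjusted p = 0.535). Psmc2, an ATPase, and Psmd4, a ubiquitin receptor, also had AML libraries below all healthy ones, with log2 fold changes of -0.11 and -0.12 and adjusted p of 0.633 and 0.631. Psmb4 had a larger change in value but overlapping groups, at 188, 166 and 152 CPM in AML libraries, against 225, 192 and 177 CPM in healthy libraries.

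The constitutive subunits shared an order of libraries within each group. AML 1 was the highest AML library for 28 of 31 subunits, and AML 3 the lowest for 22. Healthy 3 was the lowest healthy library for 26, and healthy 1 or 2 was the highest for 17 and 14. The mean log2 CPM of the 31 subunits was 6.97, 6.86 and 6.81 in AML 1, 2 and 3. It was 7.00, 6.98 and 6.87 in healthy 1, 2 and 3, so the groups overlapped. The group means differed by -0.07, which was not tested, and the SD between libraries was 0.08 in AML and 0.07 in healthy. For the 5 immunoproteasome genes AML 3 was likewise the lowest AML library for 4, while AML 2 was the highest for 4.

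**Figure D5:**
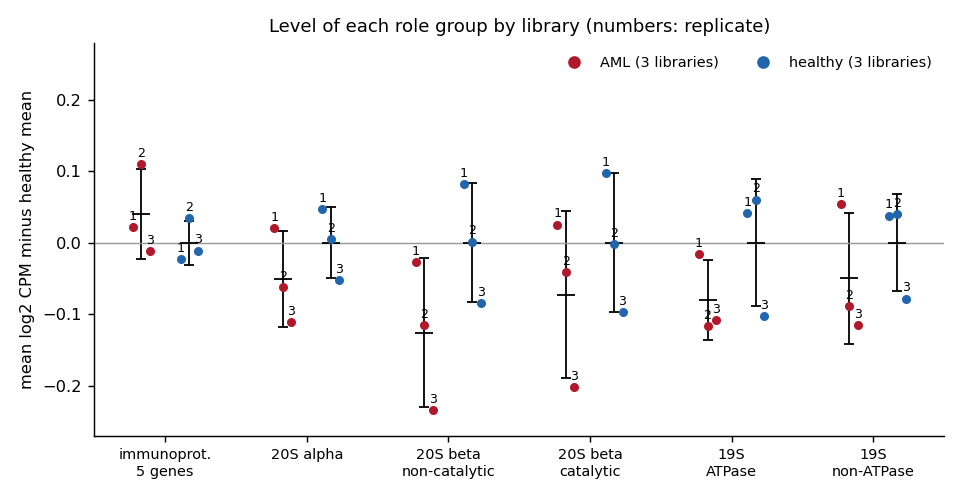
Mean log2 CPM of each role group per library, minus the mean of the 3 healthy libraries, with mean ± SD (black) and replicate numbers at the points, AML at the left of each pair. AML 3 and healthy 3 are lowest of their group for the alpha, beta and non-ATPase subunits, and the groups overlap throughout.

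Within each library the 5 immunoproteasome genes exceeded the 31 constitutive subunits by a mean log2 CPM of 1.22, 1.42 and 1.35 in AML 1, 2 and 3, against 1.15, 1.23 and 1.29 in healthy 1, 2 and 3. This CPM difference does not correct for length, which is the same in both groups. AML libraries averaged 1.33 ± 0.10 and healthy libraries 1.22 ± 0.07 (SD, n = 3 each), a difference of 0.11, with AML 1 inside the healthy range. The difference was 0.06 without AML 2, 0.07 without healthy 1 and 0.16 without AML 1. No test was made of it, as the genes were chosen with earlier results known. Healthy 1, the healthy library with the most myeloid marker reads, had the lowest value of the 6, and a link between them was not tested. With Lyz2, a myeloid gene, as a covariate the difference was 0.18. Lyz2 measured 503, 567 and 434 CPM in AML 1, 2 and 3, against 459, 35.0 and 33.1 CPM in healthy 1, 2 and 3. That fit therefore compares AML mostly with healthy 1, and it cannot separate myeloid reads from other traits of that library.

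The chaperones of the 19S cap, Psmd5, Psmd9 and Psmd10, had log2 fold changes of -0.12, -0.02 and 0.03. Psme3, the nuclear activator PA28 gamma, stood at 235, 225 and 208 CPM in AML libraries, against 247, 234 and 228 CPM in healthy libraries, a log2 fold change of -0.09 ± 0.08 (SE). Psme4, the activator PA200, and Psmf1, the inhibitor PI31, had log2 fold changes of 0.04 ± 0.14 and -0.10 ± 0.09 (SE). The groups overlapped for all 6 of these genes.

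Psme2b had the largest change among the 44. It lies on chromosome 11, 48945352 to 48946410, and measured 16.4, 18.8 and 18.7 CPM in AML libraries, against 11.4, 13.9 and 14.5 CPM in healthy libraries, with every AML library above every healthy one. Its log2 fold change was 0.44 ± 0.14 (SE), interval 0.10 to 0.77, and edgeR gave an unadjusted p of 0.0170 (adjusted p = 0.479). It is a near-copy of Psme2, which stood at 154 RPKM in AML libraries and 146 RPKM in healthy libraries, beside 16.98 RPKM in AML and 12.6 RPKM in healthy libraries for Psme2b. How reads matching both were counted is not given in the sources used here. Its span also lies inside that of Gm12185 and overlaps 9930111J21Rik1 by 261 bases, both on the same strand. Gm12185 had a log2 fold change of 0.00 ± 0.31 (SE) and 9930111J21Rik1 of 0.42 ± 0.17, with an unadjusted p of 0.0376, so the value for Psme2b is uncertain. Psmc3ip stood at 4.61 ± 0.860 CPM in AML libraries and 3.93 ± 0.471 CPM in healthy libraries (SD, n = 3 each), and its span overlaps that of Mlx on the other strand by 67 bases.

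Among the transcription factors and cofactors that act on proteasome or interferon-induced genes, 0 passed an adjusted p of 0.05 over all genes. Irf9, a factor of type I interferon signalling, measured 179, 158 and 151 CPM in AML libraries, against 114, 109 and 121 CPM in healthy libraries, with every AML library above every healthy one. Its log2 fold change was 0.51 ± 0.09 (SE), with an adjusted p of 0.323 from edgeR. The AML libraries also held more myeloid marker reads, as given above, whose part in this value was not tested. Irf1, which drives Psmb9 and other immunoproteasome genes, had a log2 fold change of 0.05 ± 0.10, Nlrc5, the class I transactivator, of 0.18 ± 0.11, and Nfe2l1, which encodes the NRF1 factor of constitutive proteasome genes, of -0.14 ± 0.09 (SE).

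Of the assembly factors, shuttle factors and ubiquitin genes that work beside the proteasome, likewise 0 passed that threshold. The polyubiquitin gene Ubb and the shuttle factor Rad23b had log2 fold changes of -0.11 and -0.13, and for Ubb the AML libraries lay below all healthy ones. Pomp, the maturation factor of the 20S core, had one of 0.05 ± 0.11 (SE). The class I peptide path handles the peptides that proteasomes make. Of 11 of its genes, 0 had an unadjusted p below 0.05 in the quasi-likelihood test, where 8.84% of all genes did. The median log2 fold change of the 11 was -0.01. Those with the smallest p were Tap1, which shares the interval printed above with Psmb9, at 0.14 ± 0.08, B2m at 0.08 ± 0.06 and Tap2 at -0.09 ± 0.08 (SE).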

How the data were processed

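RNA was measured in 6 libraries of liver ILC1, 3 AML and 3 healthy, grouped by title. The deposited read counts per gene are whole numbers. Without giving roles, the submitters' processing notes list the builds mm10 and hg19 and the tools HTSeq 0.6.0, edgeR 3.28.1, STAR 2.6.0 and bcl2fastq 2.18.0.12. Per the file headers, the authors' comparison table holds log2 fold changes, a likelihood ratio score and p-values. Its deposited values per library behave as RPKM and were not used.

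Counts were tested in edgeR 4.0.16 (R 4.3.3) by quasi-likelihood F test, with TMM, filterByExpr at a minimum count of 10, group only, two-sided, and Benjamini-Hochberg adjustment over all genes. The fit was tested on simulated data with the same spread for every gene and no outlying library, a simpler setting than these libraries. RPKM here are TMM-scaled CPM divided by the table's gene length. Mean log2 CPM used a pseudocount of 0.5. Alternatives were DESeq2 1.42.0, limma 3.58.1, other scalings and filters, a replicate block, Lyz2 as a covariate and left-out libraries. Members and lists were chosen with earlier results of these data known. All proteasome genes could be named, and up to 3 genes of each other list, by smallest p, except for results that are not reported here. Irf1, Nfe2l1 and Pomp were named for their roles after values were seen. No 2 libraries agreed within sampling noise. A count of 3, the limit that 0 reads allow, equals 0.0585 to 0.0665 CPM on total counts without TMM scaling, for counting error only.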

Additional observations from a re-analysis of the deposited data

How the results depend on the processing

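No proteasome gene passed an adjusted p of 0.05 under any alternative run. The count over all genes was 143 by DESeq2, 100 by the likelihood ratio test, 2 with library size only, 2 with no filter, 444 without both healthy 1 and AML 1, and 0 to 147 without single libraries (147 without AML 1, 89 without healthy 1). Members at an unadjusted p below 0.05 were 3 higher and 4 lower of 44 with Lyz2 as a covariate (4.73% and 2.87% of all genes), 0 lower with library size only (2.05%), and 0 to 1 higher and 0 to 5 lower without single libraries (5 without healthy 3, beside 4.01% of all genes, and 3 without AML 1, beside 8.01%). The median log2 fold change of the immunoproteasome genes was 0.12 with library size only, where that of all genes was 0.07, and 0.03 to 0.07 without single libraries. That of the constitutive subunits was -0.0093 with library size only, and -0.12 (without healthy 3) to -0.036 (without healthy 2) without single libraries. Without single libraries Psmb9 ran from 0.055 to 0.17, Psmb10 from -0.13 to -0.042, Psme1 from 0.012 to 0.078 and Psme2 from 0.027 to 0.13. The 5-gene excess ranged from 0.06 to 0.16 without single libraries. The log2 ratio difference was 0.22 for Psmb8 over Psmb5 and 0.54 for Psmb9 over Psmb6 with Lyz2 as a covariate. Without single libraries it ran from -0.05 to 0.11 for the Psmb8 pair, 0.04 to 0.30 for the Psmb9 pair (lowest without healthy 1) and 0.01 to 0.16 for the Psmb10 pair. The cause of these shifts was not tested. Fits with Lyz2 as a covariate rest mostly on healthy 1, the only healthy library with Lyz2 at AML levels. With principal transcript lengths, chosen after seeing the data, the ratio in AML libraries was 12.8, 0.782 and 4.77 in place of 16.5, 1.71 and 13.8 for these pairs. The sign changed for Psmb5 with library size only, at 0.051, and among single left-out libraries, where it ran from -0.071 to 0.076. It also changed for Psmb8, which ran from -0.041 to 0.070, and Psmb6, from -0.15 to 0.017 and 0.0082 without both healthy 1 and AML 1. Psme2b stayed positive (0.33 to 0.66) and Psma6 negative (-0.27 to -0.13) under the alternatives run. For libraries with equal replicate numbers the correlations of deviations from the group mean, over all genes, were 0.13, -0.11 and 0.22. With groups of 3 these values cannot settle whether the libraries were paired. The median deviation of the proteasome genes was 0.067, -0.005 and -0.062 in AML 1, 2 and 3. It was 0.043, 0.028 and -0.072 in healthy 1, 2 and 3, the same order. With the replicate block 2 members were lower (4.9% of all genes) and 1 higher (6.82%) at an unadjusted p below 0.05, and 0 genes passed.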
